A study of Mus musculus with 42 samples.

Results

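The brakes and the accelerator of the G1 phase of the cell cycle, the cyclin-dependent kinase (CDK) inhibitors and the D cyclins, were followed through sorted and unsorted epithelium of the mouse stomach and gut, to see how they vary between cells that carry or lack stem cell markers. The 10 genes were chosen by name, with earlier results of these data known. They are the Cip/Kip inhibitors Cdkn1a, Cdkn1b and Cdkn1c, the Ink4 inhibitors Cdkn2a, Cdkn2b, Cdkn2c and Cdkn2d, and the D cyclins Ccnd1, Ccnd2 and Ccnd3. All 10 were found among the 22180 genes that a probe set with 1 gene symbol measured, and each had 1 such probe set. Values are log2 intensities of Affymetrix arrays, so a difference of 1 is a doubling, and the medians of the 42 arrays lay between 3.82 and 4.25. Probe sets differ in brightness for reasons other than abundance, so levels are compared between samples and never between genes.

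D cyclins bind the kinases Cdk4 and Cdk6 when growth signals arrive, and the complex phosphorylates the retinoblastoma protein, which frees E2F factors to switch on the genes of DNA replication. Ink4 proteins bind Cdk4 and Cdk6 and keep the D cyclins out. Cip/Kip proteins bind assembled cyclin and kinase complexes, block those that hold Cdk2, and can also help D cyclins assemble with their kinases. In gut epithelium, Cdkn1a (p21) is known for its presence in cells that have left the cycle on their way to the surface, and Ccnd1 is known as a gene that Wnt signalling and Myc can raise.

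The arrays fall into 15 groups from untreated adult mice not selected for sex. In the Lgr5-EGFP-IRES-CreERT2 line (IRES), where the Lgr5 locus drives green fluorescence and an inducible Cre and where expression is known to be patchy, cells were sorted as bright (Lgr5Hi) or dim (Lgr5Lo). Lgr5 encodes a receptor of R-spondin and marks stem cells of gut glands. The IRES pylorus, the gland region at the outlet of the stomach, gave 4 Lgr5Hi, 4 Lgr5Lo and 2 whole, unsorted samples. The IRES colon gave 3 Lgr5Hi, 3 Lgr5Lo and 2 whole samples, and the IRES small intestine (SI) gave 2 Lgr5Hi, 2 Lgr5Lo, 2 labelled crypt and 1 labelled whole. The Lgr5-EGFP-DTR line (DTR), in which the Lgr5 locus drives fluorescence and a diphtheria toxin receptor, gave 3 pyloric samples each of Lgr5Hi, Lgr5Lo and Lgr5Neg cells, and no toxin was given. Wildtype (WT) pylorus was sorted with an antibody to the water channel Aqp5 into 4 Aqp5Pos and 4 Aqp5Neg samples. The labels call the samples biological replicates and do not say how many animals each holds, so p-values measure the spread between these samples.

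Some arrays stand against their labels. Replicate 1 of whole colon resembled stomach, with the stomach gene Gkn1 at 13.12 and the intestinal gene Cdx2 at 4.43, against 4.92 and 8.04 in replicate 2. The 2 arrays labelled SI crypt averaged 4.93 for Lgr5 against 7.10 in the array labelled SI whole, and a list of 5 enterocyte genes averaged 11.48 in each of them against 10.02 there. These groups are given as levels and enter no comparison, although the IRES fit takes its spread from all 25 IRES arrays. Leaving out replicate 1 of whole colon, or the 3 SI arrays labelled crypt and whole, changed no count of members called. For the 9 DTR arrays the mouse model field names the IRES line, and the title was followed. Lgr5 rose in each bright gate, by 4.13 ± 0.19 (SE) from DTR Lgr5Neg to Lgr5Hi and by 2.02 ± 0.30 from IRES pyloric Lgr5Lo to Lgr5Hi, though the colon difference of 1.90 ± 0.35 was not called (limma, as below). Aqp5 rose by 1.63 ± 0.21 in WT Aqp5Pos cells. The 4 surface pit genes of the stomach averaged 8.02 or more on every pyloric array and at most 4.48 on the sorted SI and colon arrays. Markers of immune cells, fibroblasts and smooth muscle, endothelium and squamous forestomach averaged between 3.10 and 5.39 on every array.

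Promoter sequences were in the RefSeq table (GRCm38.p6) for 7 of the 10 members, and they are printed for the 2 with the widest range over the groups, Cdkn1a and Cdkn2b. Each is the 250 bases before a start, 5′ to 3′ on the strand of the gene. The windows are chr17:29090729-29090978 (+) and chr17:29093519-29093768 (+) before the 2 listed starts of Cdkn1a, and chr4:89311033-89311282 (-) before that of Cdkn2b, which neighbours Cdkn2a. Capitals mark matches, on either strand, to any of the searched motifs: the GC box GGGCGG, the TATA box TATAAA, the cyclic AMP response element TGACGTCA, the Tcf/Lef core CTTTGA and the E-box CACGTG.
Cdkn1a, first window: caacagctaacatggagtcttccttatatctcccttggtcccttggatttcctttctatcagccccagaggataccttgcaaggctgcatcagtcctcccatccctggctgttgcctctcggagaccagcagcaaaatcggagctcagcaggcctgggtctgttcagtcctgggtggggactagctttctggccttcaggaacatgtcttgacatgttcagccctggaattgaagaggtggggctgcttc
Cdkn1a, other window: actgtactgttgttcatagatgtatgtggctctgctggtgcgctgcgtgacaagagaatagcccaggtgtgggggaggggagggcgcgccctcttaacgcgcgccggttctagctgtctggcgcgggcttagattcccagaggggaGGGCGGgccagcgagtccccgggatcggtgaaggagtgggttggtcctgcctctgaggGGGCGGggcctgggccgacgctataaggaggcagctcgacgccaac
Cdkn2b: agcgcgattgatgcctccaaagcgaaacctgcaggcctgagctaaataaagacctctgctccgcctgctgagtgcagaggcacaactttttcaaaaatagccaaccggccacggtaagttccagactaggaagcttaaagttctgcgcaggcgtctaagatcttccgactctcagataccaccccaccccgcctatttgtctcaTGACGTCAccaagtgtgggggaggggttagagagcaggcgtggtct
The first Cdkn1a window held none of the 5 motifs, and the other held 2 GC boxes, which begin 104 and 46 bases before the start. The Cdkn2b window held 1 cyclic AMP response element that begins 46 bases before the start and no GC box. Of 32851 windows of this length in the table, 32.7% held the GC box and 1.5% the cyclic AMP response element, while 12.4% held the TATA box, 13.8% the Tcf/Lef core and 6.0% the E-box. A match is a description of letters and no evidence of a factor at work.

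Cdkn1a had the widest range of the 10 members, from a mean of 5.95 in WT Aqp5Pos cells to 10.27 in whole pylorus, a span of 4.32 over the 15 group means. The median span over all genes was 1.03, and 14.8% of genes spanned 2 or more, as did Cdkn1a, Cdkn2b, Ccnd1 and Cdkn1c. Cdkn1a was lower in the brighter or Aqp5Pos cells of the IRES pylorus, IRES colon, SI, WT and DTR. The 3 DTR comparisons use the same 9 samples, so they are not separate observations. The sign turned in DTR Lgr5Hi minus Lgr5Lo when Lgr5Hi replicate 2 was left out (0.02). It fell by the test in IRES pylorus and in WT pylorus.

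In the IRES pylorus, Cdkn1a read 6.82, 6.91, 6.56 and 7.28 in the 4 Lgr5Hi samples. The Lgr5Lo samples read 8.81, 8.56, 9.22 and 8.83. All bright samples lay below all dim ones, and the bright sample was lower in each of the 4 pairs that share a replicate number, by 1.56 to 2.66. The difference was -1.96 ± 0.23 (SE), a level 3.90-fold lower in Lgr5Hi cells (adjusted p = 0.000158, limma, Benjamini-Hochberg over all genes). It was the only one of the 10 members called there, where 1.49% of all genes were called at an adjusted p under 0.05. Over 16 other settings the difference ran from -2.09 to -1.84 and was called in each.

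WT cells sorted without any reporter gave the same direction. Cdkn1a read 6.62, 5.90, 5.93 and 5.35 in Aqp5Pos samples and 6.84, 7.56, 7.94 and 7.56 in Aqp5Neg samples. The groups did not overlap, though the highest positive and the lowest negative sample lay close together. The difference was -1.53 ± 0.28 (SE), a level 2.88-fold lower (adjusted p = 0.0155, limma). It was again the only member called, against 2.80% of all genes. Leaving out Aqp5Neg replicate 2, 3 or 4 ended the call, with limma's adjusted p at 0.0562, 0.0603 and 0.0646 and differences of -1.50, -1.37 and -1.50.

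In the colon, Cdkn1a read 7.36, 8.24 and 7.03 in Lgr5Hi samples and 9.24, 9.12 and 9.16 in Lgr5Lo samples. The dim samples were tightly grouped and all above the bright ones, of which replicate 2 was the highest. The difference of -1.63 ± 0.27 (SE) was not called (adjusted p = 0.102, limma), nor was any of the 22180 genes (0%), of which 4.51% had an unadjusted p under 0.05, as had 1 of the 10 members, Cdkn1a. Without Lgr5Hi replicate 2 it was -1.97 and was called (limma adjusted p = 0.00417). The SI gave 7.49 and 7.87 in bright against 8.52 and 9.16 in dim samples, a difference of -1.16 ± 0.33 (SE), not called (adjusted p = 0.261, limma). In the SI 0 of the 10 members and 0.185% of all genes were called. An unadjusted p under 0.05 was found for 2 members, Cdkn1a and Cdkn2b, and for 4.69% of all genes.

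DTR cells had a narrower Cdkn1a range. The 3 Lgr5Hi samples read 7.21, 6.91 and 7.48, the Lgr5Lo samples 7.44, 7.34 and 7.20 and the Lgr5Neg samples 8.29, 7.49 and 7.52. Lgr5Hi lay below Lgr5Neg without overlap but close to it, and the difference of -0.56 ± 0.21 (SE) was not called (adjusted p = 0.0901, limma). Lgr5Hi and Lgr5Lo overlapped, with a difference of -0.13 ± 0.21 (SE, adjusted p = 0.831, limma). The gate effect of one line was not tested against that of the other. Within the IRES line, the pyloric bright-minus-dim difference less that of colon was -0.34 ± 0.36 (SE), and less that of SI -0.81 ± 0.40, neither called (adjusted p = 0.894 and 0.697, limma). Of all genes, 0.225% and 0.0316% were called in these 2 tests.

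Cell type markers also differed between these gates, though not always together with Cdkn1a. The mean of the 4 surface pit genes, which mark mucous cells at the gastric surface, ran from 10.74 to 12.21 in IRES pyloric Lgr5Hi samples and from 12.22 to 12.48 in Lgr5Lo samples, with 0 of 4 called. In WT it ran from 10.33 to 11.22 in Aqp5Pos and from 12.12 to 12.24 in Aqp5Neg samples, with 4 of 4 called lower. In WT 4 of 5 tuft cell genes were also lower, averaging 4.21 to 4.49 in Aqp5Pos and 5.39 to 5.67 in Aqp5Neg samples. The 3 gland mucous genes averaged 11.73 to 11.85 there against 10.61 to 10.91, with 2 higher, and of 4 parietal and chief cell genes 2 were lower and 1 higher. In DTR the pit mean ran from 8.02 to 8.99 in Lgr5Hi and from 12.28 to 12.31 in Lgr5Neg samples, 4 of 4 lower, beside a Cdkn1a difference of -0.56. Against DTR Lgr5Lo cells 4 of 4 pit genes were lower too, while Cdkn1a overlapped between those gates. In both DTR comparisons 5 of 5 tuft cell genes were higher in Lgr5Hi cells. Of all genes, 1.49% were called in IRES pylorus, 2.80% in WT, 18.3% in DTR Lgr5Hi minus Lgr5Neg and 4.97% in Lgr5Hi minus Lgr5Lo. In the colon the 4 goblet cell genes averaged 10.02 to 11.32 in bright and 11.92 to 12.07 in dim samples, and in the SI the 5 enterocyte genes averaged 7.21 to 9.54 and 9.85 to 10.46, with none called. In these 2 tissues 0% and 0.185% of all genes were called. Enteroendocrine genes were lower in the bright samples of all 3 IRES tissues, at 6.98 to 7.57 against 7.67 to 9.10 in pylorus, where 2 of 10 were called. Without detection calls, these averages cannot show whether a cell type was present or absent. The part of these cells in the Cdkn1a result was not tested. In sorted bulk samples, fewer cells of a type and less RNA per cell cannot be told apart.

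Unsorted tissue and arrays labelled crypt sat at the top of the Cdkn1a order. Whole pylorus read 10.29 and 10.25, whole colon 9.56 and 9.89, and the arrays labelled SI crypt 9.54 and 9.82. The array labelled SI whole read 8.23. At the bottom came WT Aqp5Pos (5.95), IRES pyloric Lgr5Hi (6.89) and DTR Lgr5Hi (7.20). From DTR Lgr5Hi upwards, the means of DTR Lgr5Lo, WT Aqp5Neg, colon Lgr5Hi, SI Lgr5Hi and DTR Lgr5Neg lay between 7.33 and 7.76. Samples of neighbouring groups in the order overlapped in 11 of the 14 steps. The steps without overlap were those from the array labelled SI whole to SI Lgr5Lo, from colon Lgr5Lo to the arrays labelled SI crypt, and from whole colon to whole pylorus. The models were processed in 1 table but were not tested against each other.

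**Figure D1:**
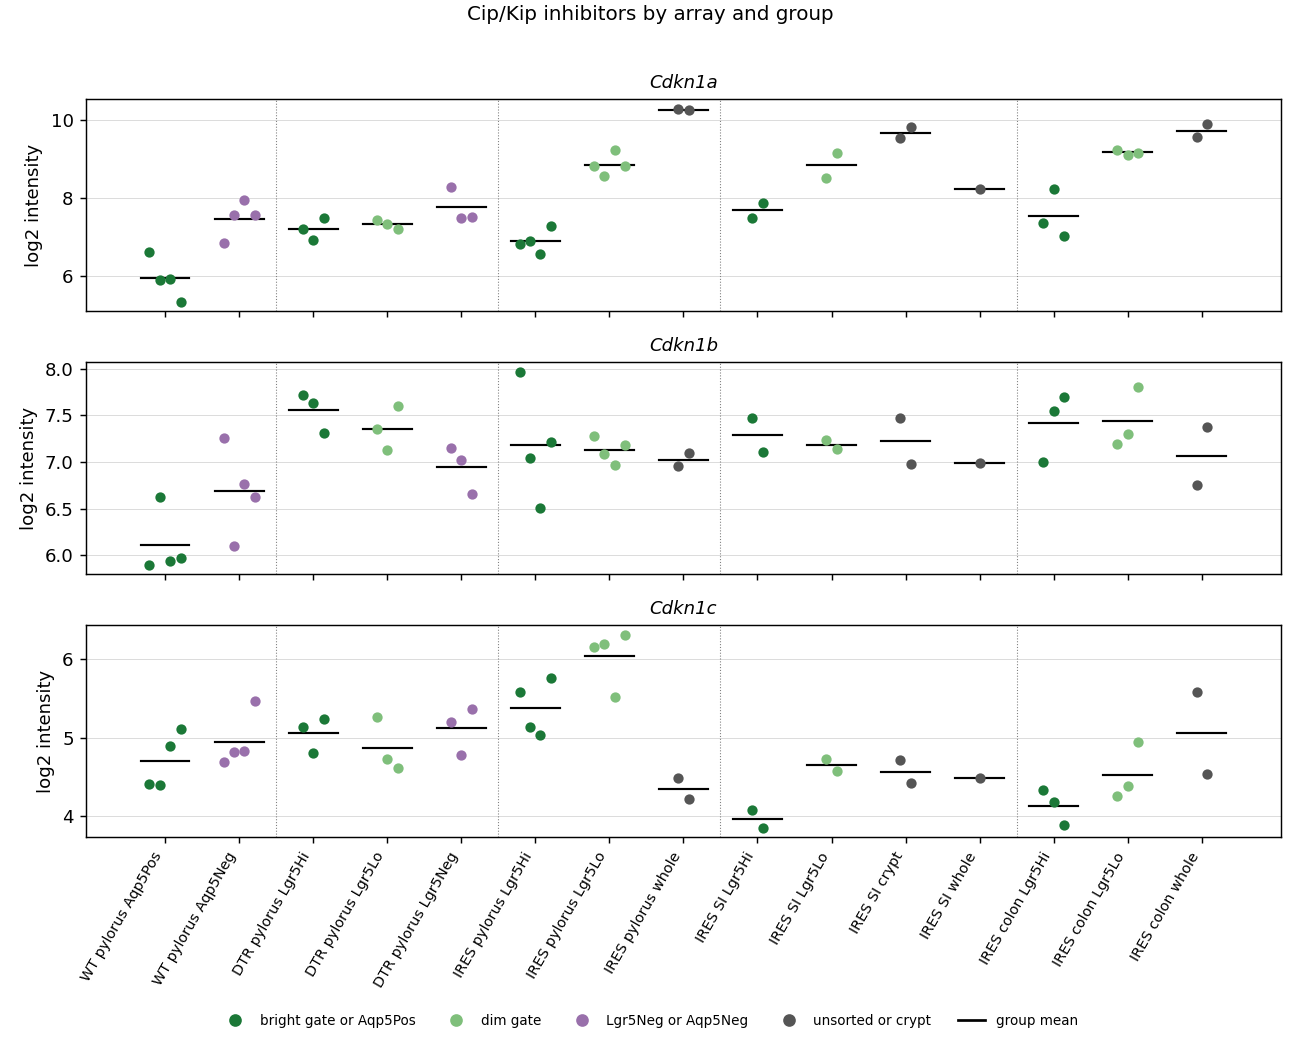
Log2 intensity of the Cip/Kip inhibitors on each array (points, coloured by gate) with the group mean (black line), for the 15 groups in 5 blocks of WT, DTR and IRES pylorus, SI and colon. Cdkn1a sits lower in IRES pyloric Lgr5Hi samples (6.56 to 7.28) than in Lgr5Lo samples (8.56 to 9.22), and Cdkn1c sits higher in sorted IRES pylorus than in sorted SI and colon.

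Cdkn1c (p57), an imprinted Cip/Kip inhibitor known from quiescent stem cells of several tissues, was the only member called between sorted IRES pylorus and intestine. In the IRES pylorus it read 5.59, 5.14, 5.04 and 5.76 in Lgr5Hi and 6.16, 6.19, 5.51 and 6.31 in Lgr5Lo samples. In the colon it read 4.34, 4.18 and 3.88 in Lgr5Hi and 4.25, 4.39 and 4.95 in Lgr5Lo samples. In the SI it read 4.07 and 3.85 in Lgr5Hi and 4.73 and 4.58 in Lgr5Lo samples. Within each gate, every pyloric sample lay above every intestinal one.

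Among bright cells Cdkn1c was 2.37-fold higher in pylorus than in colon (1.25 ± 0.26 on the log2 scale, SE; adjusted p = 0.00311, limma) and 2.67-fold higher than in SI (1.42 ± 0.29; adjusted p = 0.00198, limma). Among dim cells it was 2.86-fold higher than in colon (1.51 ± 0.26; adjusted p = 0.000587, limma) and 2.62-fold higher than in SI (1.39 ± 0.29; adjusted p = 0.00336, limma). Each pair of comparisons shares the pyloric samples. The sorted SI and colon group means of Cdkn1c, 3.96 to 4.66, lay near the array medians of 3.82 to 4.25. Without detection calls such a low signal cannot be told from background, so the folds are ratios of intensities only. It was the only member called in each of the 4, where 7.12%, 12.4%, 6.34% and 8.17% of all genes were called. The dim comparison with SI lost its call without SI Lgr5Lo replicate 2 (1.31, limma adjusted p = 0.0538), and the other 3 were called in every other setting. Between SI and colon 0 of the 10 members were called in bright or in dim cells, against 2.60% and 4.46% of all genes. In those 2 comparisons 0 and 2 members, Ccnd1 and Ccnd3, had an unadjusted p under 0.05, against 12.3% and 14.5% of all genes.

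Whole pylorus did not share the high Cdkn1c level. Its 2 samples read 4.48 and 4.21, below every sorted IRES pyloric sample. The other pyloric groups had means of 4.70 in WT Aqp5Pos, 4.95 in WT Aqp5Neg, 4.87 in DTR Lgr5Lo, 5.06 in DTR Lgr5Hi and 5.12 in DTR Lgr5Neg cells. In the whole colon pair, the array that resembled stomach read 5.58 and the other 4.53. Genes of parietal and chief cells, the acid and pepsinogen cells of the stomach, averaged 10.38 to 11.88 in sorted IRES pylorus, 8.98 and 10.99 in whole pylorus, and 3.93 to 5.17 in sorted SI and colon. Their part in the Cdkn1c result was not tested.

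Within the IRES pylorus Cdkn1c was lower in the bright sample of all 4 pairs, by 0.48 to 1.05. The groups overlapped, and the difference of -0.66 ± 0.24 (SE) was not called (adjusted p = 0.196, limma). In SI bright cells were lower in both pairs, with a difference of -0.69 ± 0.34 (SE, adjusted p = 1.00, limma). In the colon the difference was -0.40 ± 0.28 (SE, adjusted p = 1.00, limma).

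Cdkn1b (p27), the inhibitor that the Skp2 ubiquitin ligase marks for breakdown, rose in DTR bright cells. It read 7.72, 7.63 and 7.31 in Lgr5Hi, 7.35, 7.13 and 7.60 in Lgr5Lo and 7.14, 7.02 and 6.66 in Lgr5Neg samples. Lgr5Hi lay above Lgr5Neg without overlap, and Lgr5Lo samples overlapped both. The Lgr5Hi minus Lgr5Neg difference was 0.61 ± 0.18 (SE), or 1.53-fold (adjusted p = 0.0270, limma). It was 1 of 3 members called in this comparison, with Ccnd2 and Cdkn2c, where 18.3% of all genes were called. The members called were 2 higher and 1 lower, against 8.84% and 9.48% of all genes in these directions. The call was lost without Lgr5Hi replicate 1 or 2 or Lgr5Neg replicate 2 or 3, with differences of 0.47 to 0.65 and limma's adjusted p from 0.0573 to 0.123. It was lost too when all 42 arrays shared 1 fit (adjusted p = 0.253, limma).

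The other gates gave no such rise in Cdkn1b. In WT it was 5.90, 6.62, 5.94 and 5.97 in Aqp5Pos and 7.26, 6.10, 6.76 and 6.63 in Aqp5Neg samples, an opposite difference of -0.58 ± 0.25 (SE, adjusted p = 0.234, limma) with overlapping groups. Replicate 2 of the Aqp5Pos group stood above its 3 fellows. In the IRES line the bright-minus-dim difference was 0.05 ± 0.25 in pylorus, -0.02 ± 0.29 in colon and 0.10 ± 0.36 in SI.

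Cdkn2b (p15), the Ink4 gene known for its response to TGF-beta, ranged from 4.92 in DTR Lgr5Hi cells to 8.20 in the arrays labelled SI crypt, a span of 3.28. It was lower in bright or Aqp5Pos cells of the IRES pylorus, IRES colon, SI, WT and DTR, where the 3 comparisons share 9 samples, and it was called in none of these gate comparisons as fitted. Its sign turned in DTR Lgr5Hi minus Lgr5Lo without Lgr5Hi replicate 2 (0.07) or Lgr5Lo replicate 3 (0.08). In the IRES pylorus it read 4.69, 5.33, 5.93 and 5.40 in Lgr5Hi and 5.47, 6.32, 6.88 and 6.36 in Lgr5Lo samples. The groups overlapped because both replicates numbered 1 were low and both numbered 3 high. The bright sample was lower in each of the 4 pairs by 0.78 to 0.99. The difference was -0.92 ± 0.33 (SE, adjusted p = 0.196, limma). With the replicate number as a block it was called (adjusted p = 0.0494, limma), which made 2 members called in the IRES pylorus instead of 1.

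In the SI, Cdkn2b read 4.87 and 6.13 in Lgr5Hi and 7.09 and 7.26 in Lgr5Lo samples. Bright samples were lower and further apart. The difference of -1.68 ± 0.47 (SE) was not called (adjusted p = 0.245, limma) but was when all 42 arrays shared 1 fit (adjusted p = 0.0485, limma). The colon gave 6.64, 6.70 and 5.37 against 6.63, 6.90 and 6.50, a difference of -0.44 ± 0.38 (SE). DTR Lgr5Hi samples (5.10, 4.39 and 5.28) lay below Lgr5Neg samples (5.56, 5.48 and 5.46), a difference of -0.58 ± 0.25 (SE, adjusted p = 0.139, limma). WT gave -0.41 ± 0.19 (SE, adjusted p = 0.260, limma).

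The upper end of the Cdkn2b order held groups labelled SI or colon. Above whole pylorus (6.39) came colon Lgr5Lo (6.68), the array labelled SI whole (6.96), SI Lgr5Lo (7.17), whole colon (7.68) and the arrays labelled SI crypt (8.20), and no samples of neighbouring groups overlapped in these 5 steps. The 9 steps below them overlapped. Replicate 1 of whole colon, with the stomach profile, read 7.34 and the other whole colon array 8.02. Over the 15 group means Cdkn2b went with Cdkn1a (Pearson r = 0.80) and against Ccnd1 (r = -0.72) and Ccnd2 (r = -0.72). These correlations are descriptions, and the groups share lines, tissues and 1 normalization. Those with Ccnd1 and Ccnd2 lean on the arrays labelled SI crypt. These arrays had the highest Cdkn2b mean and the lowest Ccnd1 and Ccnd2 means (6.12 and 7.43).

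Cdkn2c (p18), an Ink4 inhibitor, fell in DTR bright cells. It read 5.19, 5.60 and 5.76 in Lgr5Hi, 6.10, 5.83 and 6.22 in Lgr5Lo and 6.11, 6.36 and 6.18 in Lgr5Neg samples. All bright samples lay below all dim and all negative ones. Against Lgr5Neg the difference was -0.70 ± 0.17 (SE), or 1.62-fold lower (adjusted p = 0.0104, limma), and against Lgr5Lo -0.53 ± 0.17 (adjusted p = 0.0986, limma), which used the same bright samples. The call was lost without Lgr5Neg replicate 2 (-0.63, adjusted p = 0.0517, limma) and in 1 fit over all arrays (adjusted p = 0.412, limma). In IRES pyloric Lgr5Lo cells Cdkn2c varied more than elsewhere, at 5.81, 6.91, 4.10 and 6.66. The bright-minus-dim difference there was -0.36 ± 0.41 (SE), and in colon and SI it was 0.67 ± 0.48 and 0.46 ± 0.58, none called.

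The remaining Ink4 genes varied little between gates. Cdkn2a, whose locus makes both p16Ink4a and Arf, had group means from 4.19 to 4.80, and the probe set does not tell the 2 products apart. Cdkn2d (p19) had group means from 4.67 to 5.76. Neither was called in any of the 15 comparisons. Their gate differences ran from -0.29 to 0.23 for Cdkn2a and from -0.24 to 0.22 for Cdkn2d. Without detection calls in the table, a low and level signal cannot be told from background.

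**Figure D2:**
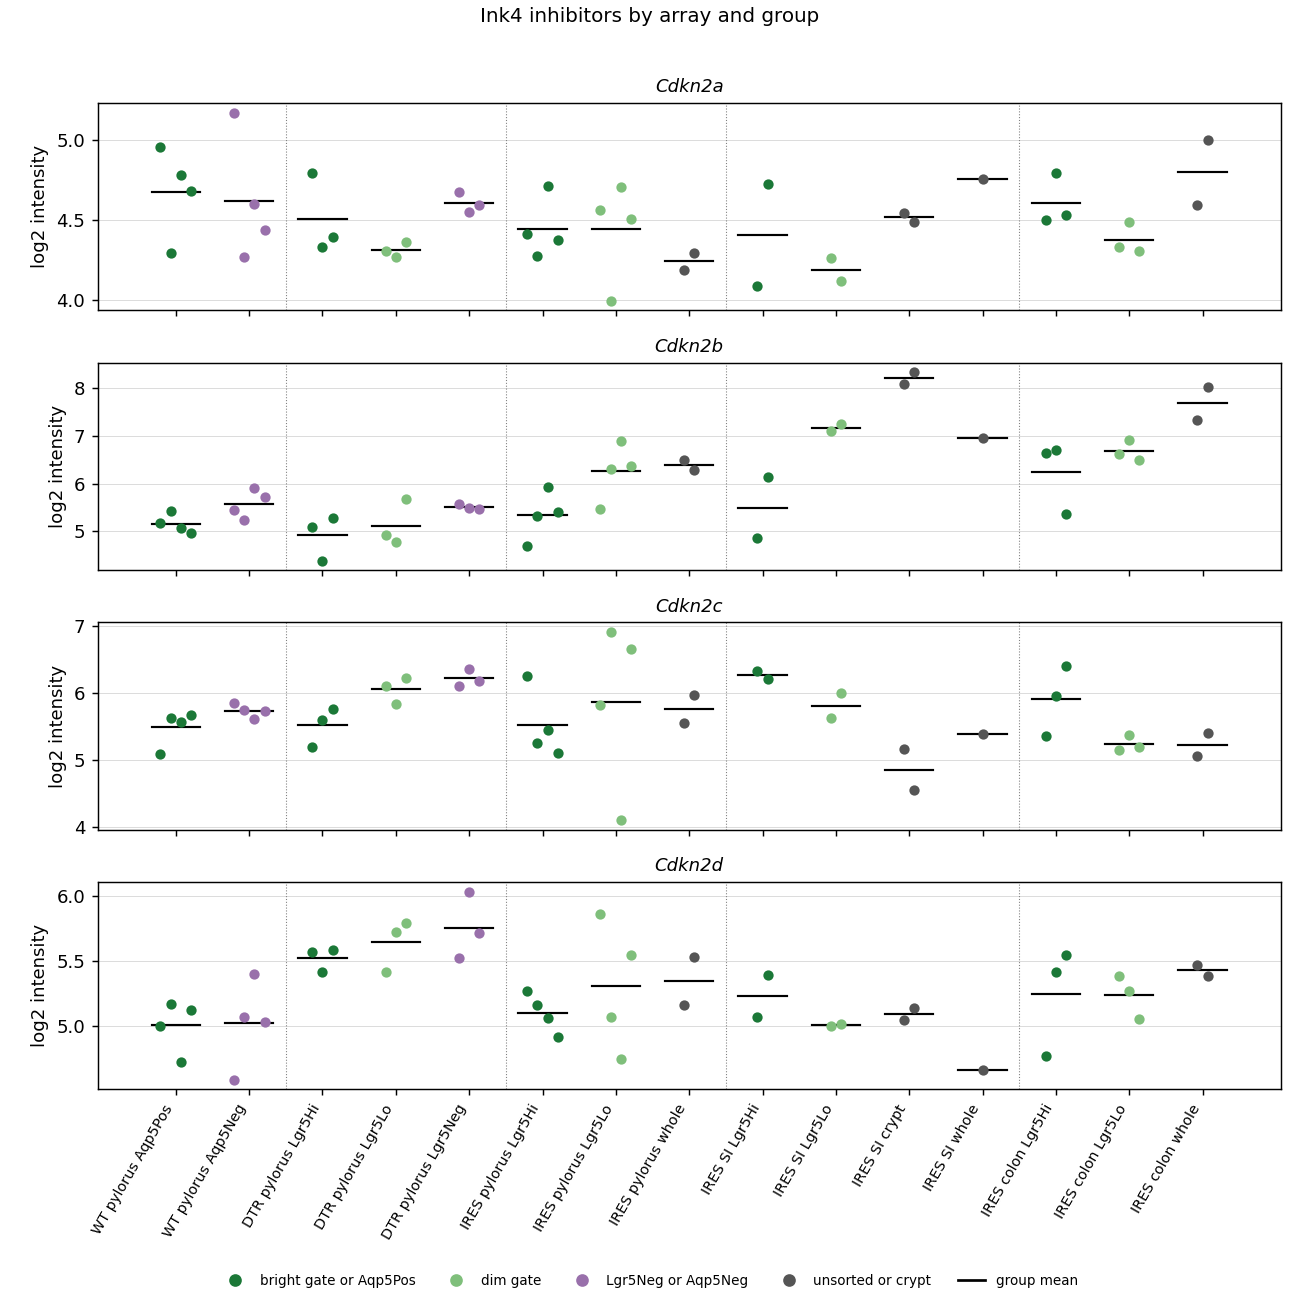
Log2 intensity of the Ink4 inhibitors on each array (points, coloured by gate) with the group mean (black line), for the 15 groups; each panel has its own vertical scale. Cdkn2b rises from 4.92 in DTR Lgr5Hi cells to 8.20 in the arrays labelled SI crypt, while the group means of Cdkn2a stay between 4.19 and 4.80.

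Ccnd2, a D cyclin, rose in DTR bright cells. It read 9.35, 9.46 and 9.00 in Lgr5Hi, 9.01, 8.83 and 9.08 in Lgr5Lo and 8.82, 8.50 and 8.49 in Lgr5Neg samples. Both sorted Lgr5 gates lay above the negative cells, and the bright and dim gates overlapped. The Lgr5Hi minus Lgr5Neg difference was 0.67 ± 0.16 (SE), or 1.59-fold (adjusted p = 0.00919, limma). It was called in 11 of 12 other settings and lost in 1 fit over all arrays (adjusted p = 0.231, limma). Lgr5Hi minus Lgr5Lo gave 0.30 ± 0.16 and Lgr5Lo minus Lgr5Neg 0.37 ± 0.16, neither called (adjusted p = 0.364 and 0.323, limma). In these 2 comparisons 0 of the 10 members were called, against 4.97% and 2.20% of all genes. Members with an unadjusted p under 0.05 were Cdkn2c in the first and Ccnd2 and Cdkn1b in the other. Such a p was found for 17.6% and 13.3% of all genes in them.

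Ccnd1, the D cyclin most often tied to Wnt signalling, read 8.81, 8.69 and 8.54 in DTR Lgr5Hi, 8.65, 8.33 and 8.75 in Lgr5Lo and 8.37, 8.32 and 8.20 in Lgr5Neg samples. Bright samples lay above negative ones without overlap. The difference of 0.38 ± 0.15 (SE) was not called (adjusted p = 0.0947, limma), and it was with trend and robust settings (adjusted p = 0.0400, limma). In the other gates no Ccnd1 difference was called: it was -0.17 ± 0.30 in IRES pylorus, 0.10 ± 0.17 in WT, -0.11 ± 0.35 in colon and 0.43 ± 0.43 in SI. IRES pyloric Lgr5Hi samples read 8.58, 8.47, 7.57 and 8.60, with replicate 3 alone below 8. Colon Lgr5Hi samples were widely spread at 7.41, 8.43 and 9.01.

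The lowest group means of Ccnd1 and Ccnd2 were in the arrays labelled SI crypt. There Ccnd1 read 6.31 and 5.93 and Ccnd2 7.66 and 7.19. All other Ccnd1 samples lay at 6.92 or above. In the array labelled SI whole Ccnd1 was 8.10 and Ccnd2 8.72. The 11 measured proliferation genes averaged 6.56 and 7.21 in the arrays labelled crypt and 8.40 in the array labelled whole, and their part in the D cyclin signals was not tested. Over the 15 group means Ccnd1 and Ccnd2 moved together (Pearson r = 0.89), a description that leans on the same low pair of arrays.

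Ccnd3, the third D cyclin, varied least of them, from 5.78 in WT Aqp5Neg to 6.55 in IRES pyloric Lgr5Lo cells. It was not called in any of the 15 comparisons. Dim pyloric samples (6.38, 6.61, 6.72 and 6.49) lay above dim SI samples (5.84 and 5.95) without overlap, a difference of 0.66 ± 0.21 (SE, adjusted p = 0.0624, limma). It was called in 2 of 14 other settings, in 1 fit over all arrays (adjusted p = 0.0337, limma) and after a filter on low genes (adjusted p = 0.0493, limma).

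**Figure D3:**
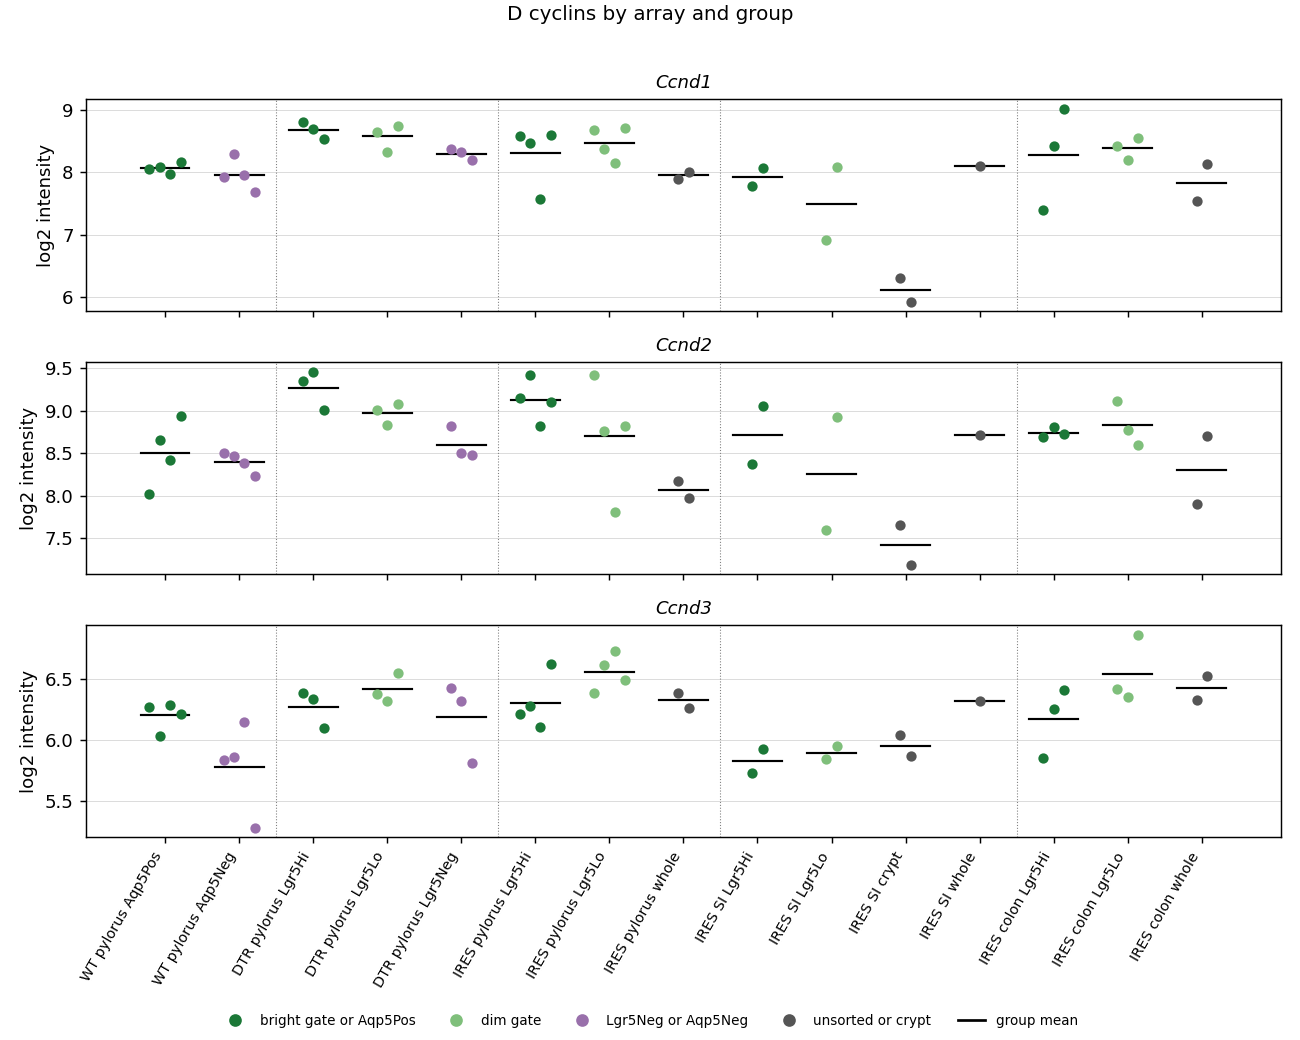
Log2 intensity of the D cyclins on each array (points, coloured by gate) with the group mean (black line), for the 15 groups; each panel has its own vertical scale. The 2 arrays labelled SI crypt carry the lowest Ccnd1 values (6.31 and 5.93), and Ccnd2 steps down from DTR Lgr5Hi through Lgr5Lo to Lgr5Neg.

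Proliferation genes, the targets furthest downstream of the members, were lower in DTR bright cells. All 11 measured proliferation genes fell, both against Lgr5Neg and against Lgr5Lo cells, with median differences of -1.58 and -1.40, while the medians over all genes were 0.02 and 0.01. These comparisons share the bright samples, and 18.3% and 4.97% of all genes were called in them. Cell type markers differed as well in the DTR comparison that called Cdkn1b, Cdkn2c, Ccnd2 and these genes. The 5 tuft cell genes, which mark chemosensory cells, averaged 6.54 to 7.67 in Lgr5Hi, 4.76 to 5.57 in Lgr5Lo and 5.08 to 5.89 in Lgr5Neg samples, with 5 of 5 called higher against either. The 3 gland mucous genes averaged 11.95 to 12.15 in Lgr5Hi, 11.48 to 11.79 in Lgr5Lo and 9.62 to 10.22 in Lgr5Neg samples, with 2 of 3 higher against Lgr5Neg, and the 4 pit genes were lower as given above. The part of these cells in the member and pathway results was not tested. Against Lgr5Neg cells Ccna2, a cyclin of S phase, fell by 1.52 ± 0.17 (SE, adjusted p = 4.5e-05, limma) and Rrm2, which makes deoxynucleotides, by 2.03 ± 0.23 (adjusted p = 5.77e-05, limma). Of 6 G1 kinases and E cyclins 3 fell, against 9.48% of all genes, and none rose: Cdk4, the partner of the D cyclins, by 0.67 ± 0.16 (adjusted p = 0.00855, limma), Ccne1, which binds Cdk2, by 0.86 ± 0.19, and Cdc7, a kinase that fires replication origins, by 0.76 ± 0.14. The members themselves split, with 2 higher and 1 lower and a median of -0.08.

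Of 15 Rb and E2F genes 6 fell and 1 rose in DTR Lgr5Hi against Lgr5Neg cells, where 9.48% of all genes fell and 8.84% rose. E2f8, itself an E2F target and repressor, fell by 2.11 ± 0.29 (SE, adjusted p = 0.000213, limma), and Rbl2 (p130), the pocket protein of resting cells, rose by 0.65 ± 0.15 (adjusted p = 0.00993, limma). Among 11 genes of D cyclin and inhibitor turnover 3 fell and none rose, against the same shares. Skp2 fell by 1.30 ± 0.18 (adjusted p = 0.000312, limma) and its cofactor Cks1b by 1.18 ± 0.20 (adjusted p = 0.00106, limma) in the comparison where Cdkn1b rose. These are RNA values, protein was not measured, and a link between them was not tested.

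Of 14 measured p53 targets other than Cdkn1a, 3 rose and 1 fell in DTR Lgr5Hi against Lgr5Neg cells, with a median of -0.08, where 18.3% of all genes were called. Trp53inp1 rose by 1.30 ± 0.19 (SE, adjusted p = 0.00039, limma), Sesn1 by 0.75 ± 0.15 and Btg2 by 0.87 ± 0.20, while Perp fell by 0.51 ± 0.14 (adjusted p = 0.0182, limma), a call kept in 8 of 12 other settings. In IRES pylorus and in WT, where Cdkn1a fell by the test, none of the 14 was called, and their medians were -0.02 and -0.11. Klf4, a factor of surface epithelium known to raise Cdkn1a, fell in the 3 pyloric models: by 2.78 ± 0.23 in DTR Lgr5Hi against Lgr5Neg, by 1.18 ± 0.28 in IRES pylorus (adjusted p = 0.0319, limma) and by 1.52 ± 0.33 in WT (adjusted p = 0.0311, limma). The Klf4 call held in 12 of 12 other settings in DTR, 10 of 16 in IRES pylorus (limma adjusted p up to 0.1215) and 8 of 14 in WT (up to 0.1017), and those losses came from leaving out single samples. Klf4 also fell by 1.84 ± 0.23 in DTR Lgr5Hi against Lgr5Lo cells, where Cdkn1a overlapped. In IRES Lgr5Hi cells it was higher in pylorus than in SI by 2.01 ± 0.34, while Cdkn1a averaged 6.89 and 7.68. The part of Klf4 in the Cdkn1a result was not tested. Myc fell by 1.47 ± 0.17 in DTR Lgr5Hi against Lgr5Neg cells (adjusted p = 7.61e-05, limma). Of 17 such regulators 5 rose and 4 fell in that comparison, against 8.84% and 9.48% of all genes.

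Proliferation medians lay nearer 0 in the other pyloric gates, a contrast between lines that was not tested. In the IRES pylorus 2 of 11 fell, against 1.49% of all genes called, with Birc5, an inhibitor of apoptosis made in mitosis, lower by 1.18 ± 0.21 (limma difference, SE) and a list median of -0.86. Skp2 fell by 1.02 ± 0.25 there (adjusted p = 0.0435, limma), a call kept in 7 of 16 other settings (adjusted p up to 0.1014). In WT 3 of 11 fell, against 2.80% of all genes called, with a median of -0.62. Of these calls Birc5 held in 5 of 14 other settings and Rrm2 in 6 of 14. Rb1, the retinoblastoma gene, fell by 1.27 ± 0.22 (adjusted p = 0.0102, limma). E2f8 fell in both, by 1.18 ± 0.28 and 0.94 ± 0.20, calls kept in 11 of 16 and 10 of 14 other settings. In colon and SI bright cells the proliferation medians were 0.46 and 0.25, with none of 11 called. Only 0% and 0.185% of all genes were called there, so the absence of calls tells little. Cdkn1a read lower in both and was not called either. The gate effect on Birc5 was more negative in pylorus than in colon, by a difference of -1.61 ± 0.32 (SE, adjusted p = 0.0301, limma).

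Bright cells of the pylorus also read lower than intestinal ones for the replication machinery. Against colon 8 of 11 proliferation genes were lower in pyloric Lgr5Hi cells and against SI 10 of 11, with medians of -0.97 and -1.64. Of all genes, 7.12% and 12.4% were called in these 2 comparisons. Cdk4 (-1.35 ± 0.31, SE) and Cdk6 (-1.61 ± 0.49), the D cyclin kinases, were lower than in SI (adjusted p = 0.00521 and 0.0339, limma). Skp2 was lower by 1.46 ± 0.28 than in colon and by 1.83 ± 0.31 than in SI. In dim pyloric cells 1 of 11 proliferation genes was higher than in colon, near the 6.34% of all genes called there. None was called against SI, where 8.17% of all genes were called. Cdkn1c was higher in dim as in bright pyloric cells.

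**Figure D4:**
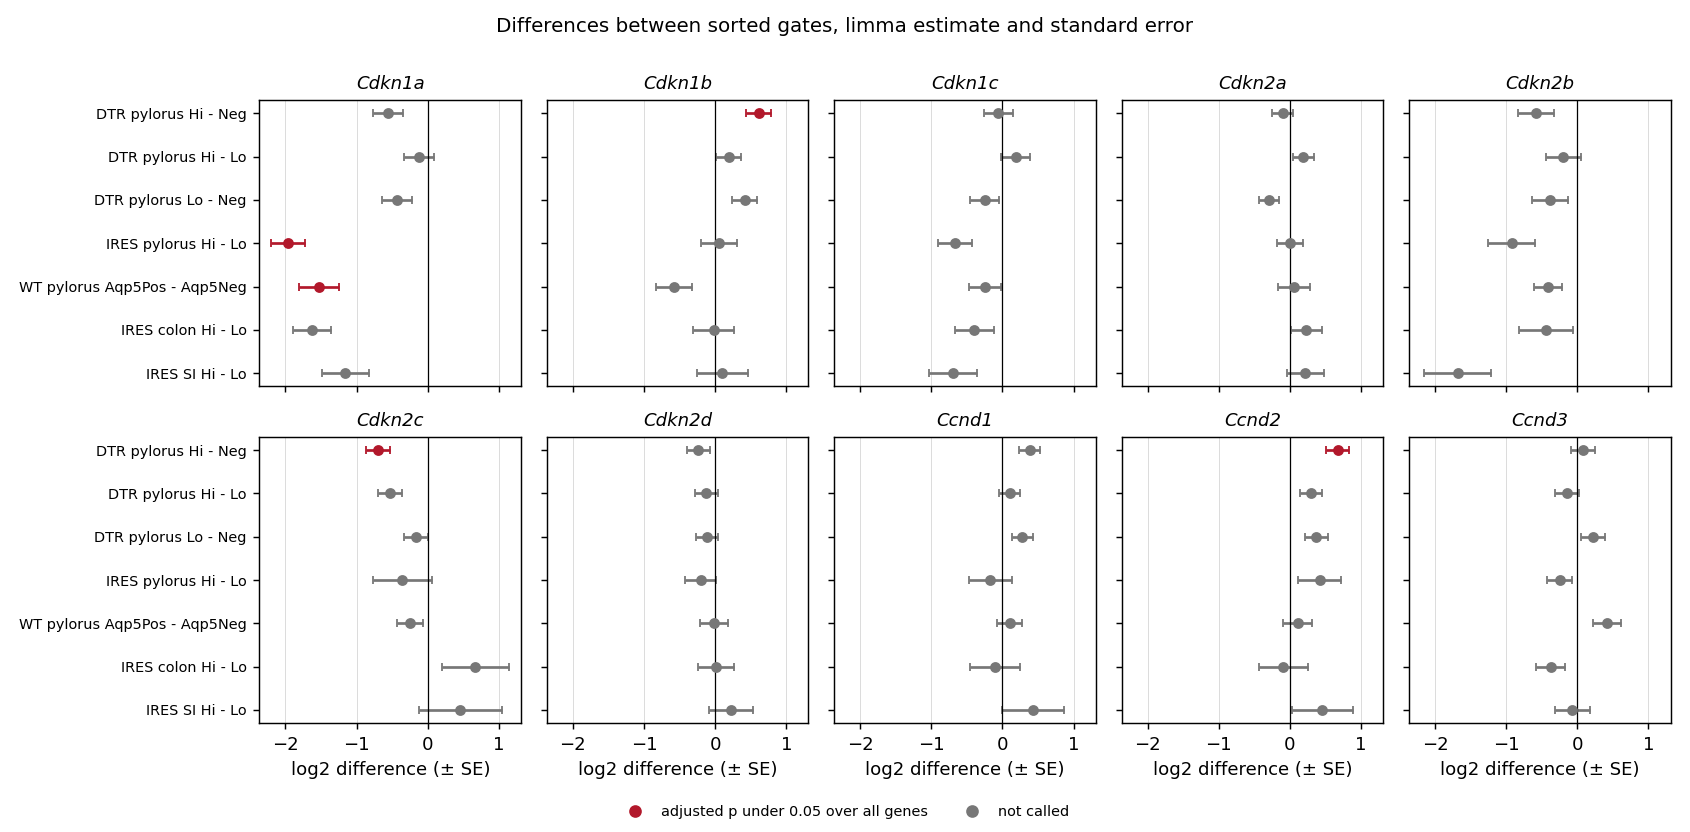
Log2 difference between gates (point, limma estimate; bar, SE) for each member in 7 comparisons, in red where the adjusted p over all genes was under 0.05. Cdkn1a lies left of 0 in each comparison, at -1.96 in IRES pylorus, and the 3 red points of the DTR Lgr5Hi minus Lgr5Neg comparison are Cdkn1b, Cdkn2c and Ccnd2.

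For the 4 members that spanned 2 or more, the genes with the most similar group means were sought among 3108 genes with such a span, by Pearson r over the 15 means. Ccnd1 was most like Sdc2 (0.96), Tceal9 (0.94) and Srm (0.93). Cdkn1a was most like Cs (0.94), Cd151 (0.92) and Il18 (0.92). Cdkn2b was most like Slc16a5 (0.95), Cox7a1 (0.93) and Ccdc32 (0.93). Cdkn1c had looser matches in Try4 (0.83), Prss1 (0.83) and Bpifb1 (0.81). These are descriptions over 15 means that share lines and tissues.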

How the data were processed

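RNA of 42 samples was hybridised to Affymetrix arrays. The deposited table holds log2 intensities, and per the submitters' processing notes the authors used RMA, with oligo, Partek, limma 3.26.8 and R 3.2.3 also named. The table has 41345 probe sets, of which 23521 name a single gene; 1814 name more than 1 and 16010 are unnamed. The brightest probe set of each gene was used (22180 genes). A limma 3.58.1 model (R 4.3.3) with 1 mean per group was fitted for each line, with eBayes and Benjamini-Hochberg adjustment over all genes, after a check on simulated data. The members and lists were chosen with earlier results of these data known. Named were the members, Lgr5, Aqp5 and, per list and comparison, up to 4 called genes of smallest p, of which the text prints a part. Replicate 1 of whole colon stayed in the IRES fit. Deviations of equally numbered samples correlated at 0.10 to 0.30 in IRES pylorus and 0.14 to 0.24 in colon, so the numbers were taken to pair these samples and the blocked fit, an alternative to the reported unpaired one, is given where it changes a call; SI had only 2 pairs. These correlations ran from -0.11 to 0.15 in DTR and from -0.02 to 0.17 in WT, so those samples were not taken as paired. The replicate block was still run for DTR and WT as 1 of the alternatives. Alternatives were other eBayes settings, median centring, a filter on low genes, the mean of probe sets, 1 fit over all arrays, a replicate block and each sample left out.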

Additional observations from a re-analysis of the deposited data

Results flagged for a closer look

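Of 40 sets of 4 samples (10 members in 4 groups), 2 held a sample far from its fellows by Dixon's test, and chance gives about 1 in 20. Ccnd1 in IRES pyloric Lgr5Hi replicate 3 was 7.57, below the other 3 samples at 8.47 to 8.60. Cdkn1b in WT Aqp5Pos replicate 2 was 6.62, above the other 3 at 5.90 to 5.97. Neither gene was called in the comparison that holds the sample.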

How the results depend on the processing

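The number of members called moved with these settings. With 1 fit over all 42 arrays it was 0 instead of 3 in DTR Lgr5Hi minus Lgr5Neg, 1 instead of 0 in IRES colon (Cdkn1a) and in SI (Cdkn2b), and 3 instead of 1 in dim pylorus minus SI (Cdkn1c, Ccnd1 and Ccnd3), where a filter on low genes gave 2. The replicate block gave 2 instead of 1 in IRES pylorus (Cdkn1a and Cdkn2b, the latter at an adjusted p of 0.0494 in limma) and changed no other member call. The mean of probe sets gave 1 in colon. With each sample left out, the counts ran from 1 to 3 in DTR Lgr5Hi minus Lgr5Neg (1 without Lgr5Neg replicate 2), 0 to 1 in WT (0 without Aqp5Neg replicate 2, 3 or 4) and 0 to 1 in colon (1 without Lgr5Hi replicate 2). They ran from 1 to 2 in bright pylorus minus colon (2 without colon Lgr5Hi replicate 3), bright pylorus minus SI (2 without pyloric Lgr5Hi replicate 4) and dim pylorus minus colon (2 without pyloric Lgr5Lo replicate 3). Among the differences rerun with each sample left out, 3 turned sign. Cdkn1a in DTR Lgr5Hi minus Lgr5Lo ran from -0.27 to 0.0183 (above 0 without Lgr5Hi replicate 2). Cdkn2b there ran from -0.37 to 0.08, at 0.07 without Lgr5Hi replicate 2 and 0.0810 without Lgr5Lo replicate 3. The pylorus minus colon difference of Cdkn1a gate effects ran from -0.59 to 0.0102 (above 0 without colon Lgr5Hi replicate 2). The cause of these changes was not tested. Median centring moved the median of all genes by less than 0.1 in each comparison. Leaving out the SI arrays labelled crypt and whole was added after seeing the data and changed no count of members called by over 1.5 times. Groups of 2 to 4 samples limit precision, and the table holds no detection calls.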
